A study of Rattus norvegicus with 8 samples.

Results

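The liver is the main site where amino acids that are not needed for protein synthesis are broken down, and the 39 genes described here encode enzymes of that work. They were taken as a list of symbols, without use of their measured values, and cover the breakdown of tyrosine, tryptophan, histidine, proline, lysine, the branched chain amino acids, methionine with the sulfur amino acids, and glycine with serine, together with the enzymes that move or release amino groups. All 39 had a probe on the array, by 45 of its 45598 distinct non-control probes. RNA was taken from rat liver cells captured by laser microdissection (LMD), which cuts chosen cells out of a tissue section under a microscope. The arrays held 2 samples of mature hepatocytes (MHs), 3 samples of small hepatocyte-like progenitor cells (SHPCs) from livers without donor cells, named control SHPCs, and 3 samples of SHPCs from livers that had received bone marrow-derived mesenchymal cells, named SHPCs with BM-MCs.

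All 3 groups came from F344 rats, female per the methods, treated with retrorsine, a plant alkaloid that keeps mature hepatocytes from dividing, in 2 injections. They also had 70% partial hepatectomy 2 weeks after the second injection, and both treatments together are abbreviated Ret/PH. The labels place the MHs in the recipient control livers, so that they too had been through Ret/PH and are not hepatocytes of an untreated liver. The donor cells were cultured from the marrow of a male F344 rat aged 5 weeks, of a strain carrying dipeptidyl peptidase IV, an enzyme by which donor cells can be told from those of the host. The labels give the strain of every sample as DPPIV-positive, whereas the methods describe recipients without the enzyme, and both sources give the same account of cell type and transplantation, by which the samples were grouped. Recipient livers were examined 14 days after transplantation, and the age of the recipients and the day of capture for the arrays are not given separately in the sources used here. Neither source ties a sample to a rat, so a p-value here reflects how far samples of a group spread, and part of that spread may be technical.

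Amino acid breakdown begins with the removal of the amino group, often by a transaminase such as Tat, Got1, Gpt or Agxt, and goes on along a route for each carbon skeleton that ends in glucose precursors, ketone bodies or one-carbon units. Several of these enzymes are markers of the differentiated hepatocyte, and Tat and Tdo2 are textbook examples of genes that come on late in liver development and answer to glucocorticoids. Many are also unevenly spread between the portal and the central side of the liver lobule, with Sds a well-known periportal enzyme.

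Promoter sequences are shown for the enzymes whose differences between groups had the lowest p-values, as a reference for the results that follow. These were Csad, Sds, Amdhd1, Agxt, Tdo2 and Bhmt, of which 4 had an entry in the RefSeq promoter table (assembly GRCr8), which matched 31 of the 39 members. Each sequence runs 5′ to 3′ on the strand of the gene from 250 bases before to 50 bases after the annotated start. Csad lies on the minus strand at chr7:135215532-135215831, Agxt on the plus strand at chr9:101122543-101122842, Tdo2 on the minus strand at chr2:169585537-169585836 and Bhmt on the minus strand at chr2:26614380-26614679. Capitals mark letters that match 1 of the 7 motifs searched.
Csad: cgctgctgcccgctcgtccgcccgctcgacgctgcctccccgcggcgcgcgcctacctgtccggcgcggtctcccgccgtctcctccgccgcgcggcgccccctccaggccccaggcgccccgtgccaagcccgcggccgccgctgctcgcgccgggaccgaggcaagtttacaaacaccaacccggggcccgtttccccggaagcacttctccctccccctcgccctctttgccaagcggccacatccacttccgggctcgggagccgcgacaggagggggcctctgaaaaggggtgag
Agxt: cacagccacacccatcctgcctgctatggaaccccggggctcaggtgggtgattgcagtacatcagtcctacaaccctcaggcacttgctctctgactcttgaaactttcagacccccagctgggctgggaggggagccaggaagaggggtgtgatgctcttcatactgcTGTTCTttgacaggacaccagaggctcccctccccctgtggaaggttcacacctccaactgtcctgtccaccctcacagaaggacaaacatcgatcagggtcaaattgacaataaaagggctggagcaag
Tdo2: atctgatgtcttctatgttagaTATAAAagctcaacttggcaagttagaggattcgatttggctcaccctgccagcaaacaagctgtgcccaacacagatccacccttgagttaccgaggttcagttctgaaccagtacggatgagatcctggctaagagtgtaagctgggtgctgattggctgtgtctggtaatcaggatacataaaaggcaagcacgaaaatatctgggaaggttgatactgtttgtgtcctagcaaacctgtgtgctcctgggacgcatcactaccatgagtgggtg
Bhmt: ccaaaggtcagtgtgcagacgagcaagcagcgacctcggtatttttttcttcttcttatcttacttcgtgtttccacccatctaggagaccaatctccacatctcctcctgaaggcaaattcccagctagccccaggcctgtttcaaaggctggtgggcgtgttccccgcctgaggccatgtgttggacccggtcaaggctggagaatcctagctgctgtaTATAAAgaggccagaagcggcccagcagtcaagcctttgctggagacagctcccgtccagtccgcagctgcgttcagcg

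The motifs were searched on both strands of all 33469 promoters of the table. In the printed sequences, Bhmt held TATAAA starting 29 bases before its annotated start, and Tdo2 held the same letters 228 bases before. Agxt held AGAACA, letters of the glucocorticoid receptor motif, read on the opposite strand, starting 80 bases before the start. None of the 7 motifs was found in the Csad window. TATAAA stood in 5 of the 31 member promoters (16.1%) and in 14.2% of all promoters, and AGAACA in 5 (16.1%) against 20.7%. The C/EBP letters TTGCNNAA stood in 4 (12.9%) against 10.6%, the HNF1 letters GTTAAT in 2 (6.45%) against 7.45%, the E box CACGTG in 2 (6.45%) against 6.42%, the HNF4A letters CAAAGTCC in 1 (3.23%, Kmo) against 1.40%, and the CRE letters TGACGTCA in 0 against 1.83%. Such matches describe the letters of these windows only.

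All 8 arrays shared 1 slide and 1 scan, with 57.0% to 61.5% of spots well above background on the 7 arrays with complete files. Their small number limits the precision of every comparison. Each slide row holds a set of 4 arrays. Both MH samples and the controls numbered 1 and 2 were in the first set, and the third control was in the second with all samples that had received BM-MCs. A level below is the log2 ratio of the deposited signal to the 75th percentile on the same array, so that 0 is that percentile and 1 unit is a 2-fold step. Levels of different genes come from different probes and were not set against each other. All 39 enzymes were well above background on all 7 arrays in the probe used. The 7 hepatocyte markers, among them Alb and Ttr, were at a summed signal of 741 to 1003 times the 75th percentile in every sample, and were highest in control SHPC replicate 3 among the controls for 7 of 7. The 7 Kupffer cell and macrophage markers summed to between 42.8 and 50.1 in the MHs, between 23.6 and 34.6 in control SHPCs and between 29.9 and 43.0 in SHPCs with BM-MCs, with 4 of the 7 lower in every control SHPC sample than in both MH samples. The 4 cholangiocyte markers that passed the filter summed to 0.280 and 0.350 in the MHs and to between 0.402 and 0.538 in the SHPC samples. No T or B cell marker passed the filter on dim probes.

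Control SHPC replicate 3 stood apart from the other controls across nearly the whole list. It had the highest level of the 3 controls for 38 of the 39 enzymes, whereas it was highest for 46.2% of the 22923 tested probes with a value on every array. Its median difference from the mean of the other controls was 0.54 over the enzymes, with a range from 0.05 to 0.94, and 0.05 over those probes. SHPCs with BM-MCs replicate 3 was likewise highest in its group for 28 of 39 enzymes, against 37.2% of the probes, and MHs replicate 1 was the higher MH sample for 29 of 39, against 53.2%. These shifts were not particular to the 39 enzymes. Of 80 other genes of amino acid metabolism, described below, 66 were highest in that control, 50 in that sample with BM-MCs and 54 in that MH sample, each within its group. Control SHPC replicate 3 had the highest summed signal of the 3 erythroid markers tested, 2.82, where the other 7 samples lay between 0.330 and 0.845. It also had the lowest summed Kupffer cell signal of all samples, a sum that mostly followed Clec4f. The part of these markers in the levels of the enzymes was not tested.

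**Figure D1:**
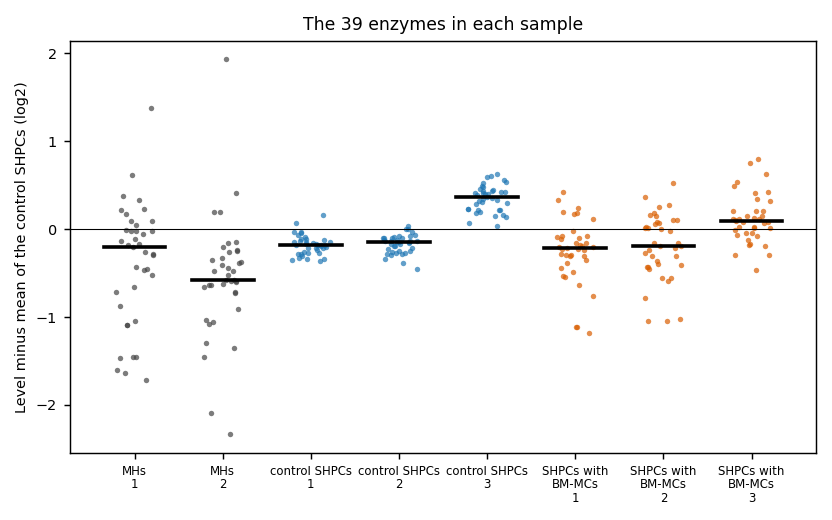
Each point is 1 of the 39 enzymes, at its level in 1 sample minus the mean of the 3 control SHPC samples (log2, vertical axis), with samples along the horizontal axis and a black bar at the median. All 39 points of control SHPC replicate 3 lie above 0, with a median of 0.36, and MHs replicate 2 has the lowest median at -0.58.

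Between control SHPCs and MHs, most of the enzymes had higher levels in the SHPCs, but no single one passed the threshold. The largest differences above 0 were those of Amdhd1 (1.89), Sds (1.78) and Gldc (1.53) on the log2 scale, and the largest below 0 was that of Csad (-1.65). In the limma fit over 23065 probes, 0 of 39 enzymes had a Benjamini-Hochberg adjusted p under 0.05, where 0.919% of all probes were called higher and 0.212% lower. At an unadjusted p under 0.05, 13 enzymes were higher (8.21% of all probes) and 2 were lower (11%). The methods' t-test on the same values called 8 higher (8.1% of all probes) and 2 lower (9.38%) unadjusted, and 0 after Benjamini-Hochberg adjustment. In 18 enzymes every control SHPC sample was above both MH samples (18.7% of probes), and in 2 every one was below (22.7%). The fitted difference was above 0 for 33 enzymes and below 0 for 6, with a median of 0.38, against 46.2% of probes above 0, 53.8% below 0 and a median of -0.03 over all of them. Without control SHPC replicate 3 the median was 0.25, with 30 enzymes above 0 and 9 below, which is also the comparison within the first set of arrays. In it 18 enzymes were above both MH samples in every control (23.1% of probes) and 3 were below (32.8%), namely Csad, Afmid and Cdo1. In it Sds differed by 1.53, Amdhd1 by 1.61, Agxt by 1.16 and Csad by -1.83. In a bulk sample, fewer hepatocytes in the captured area and less RNA of a gene in each cell cannot be told apart.

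The comparison of SHPCs with BM-MCs and MHs uses the same 2 MH samples as the one above. The largest differences above 0 were those of Sds (2.06), Amdhd1 (1.81) and Gpt (1.29), and the largest below 0 was that of Csad (-1.70). In the limma fit, 0 of 39 passed the adjusted threshold (0.321% of all probes were called higher and 0.0173% lower). At an unadjusted p under 0.05, 7 enzymes were higher (7.34% of probes) and 1, Csad, was lower (5.96%). The methods' t-test called 4 higher (4.37% of all probes) and 1 lower (4.87%) unadjusted, and 0 after adjustment. Every sample with BM-MCs was above both MH samples for 12 enzymes (16% of probes) and below them for 2 (16.3%). The difference was above 0 for 33 enzymes (50.4% of probes) and below 0 for 6 (49.6%), with a median of 0.29 against 0.0029 over all probes. The SHPCs with BM-MCs and the MHs shared no set of arrays, so position on the slide and group cannot be told apart in this comparison. With the set of arrays as a block, a fit that rests on control SHPC replicate 3, the median was -0.21 and 9 enzymes were above 0.

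**Figure D2:**
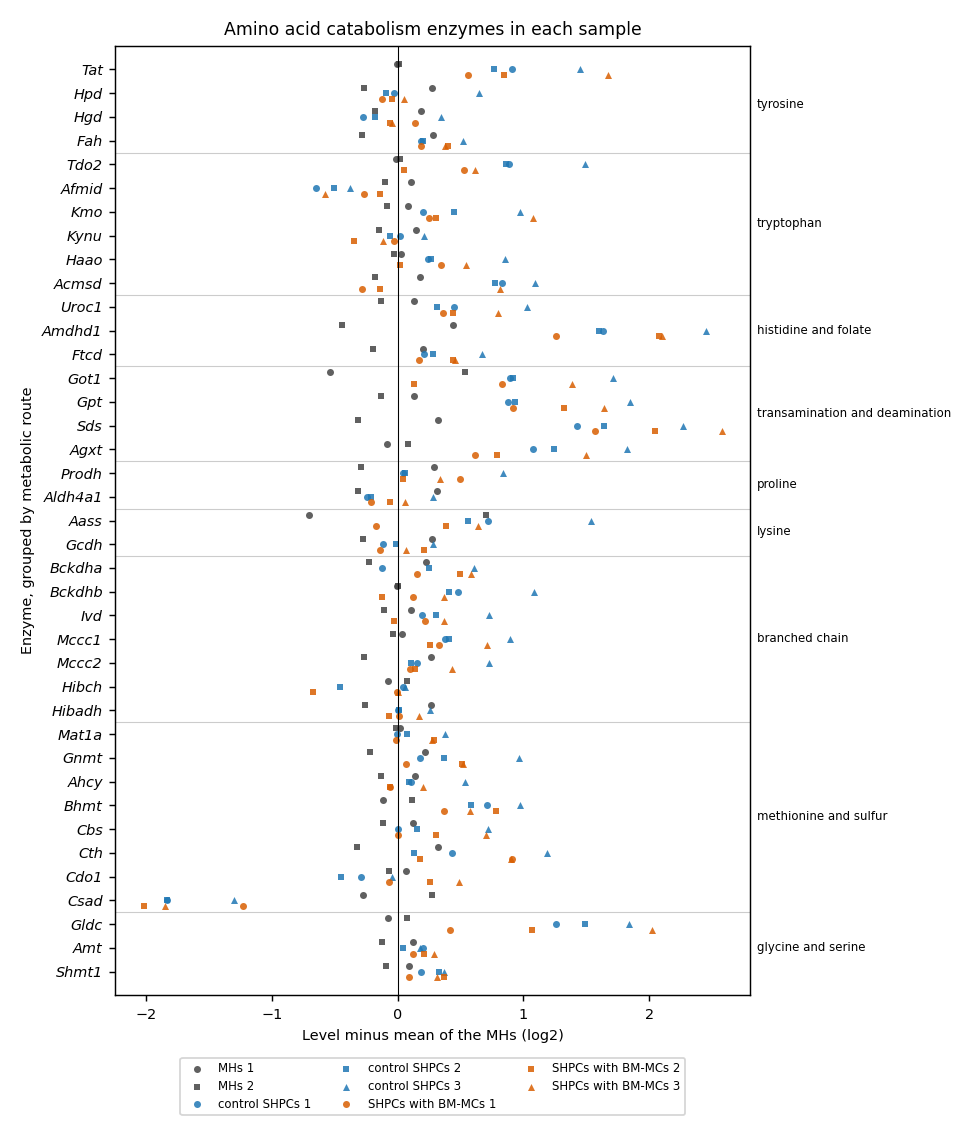
Each row is 1 enzyme, grouped by metabolic route, and each point is the level in 1 sample minus the mean of the 2 MH samples (log2, horizontal axis), with colour for the group and shape for the replicate number. The points of SHPC samples lie to the right of both MH samples for all 4 enzymes of transamination and deamination except 1 sample with BM-MCs in Got1, and Csad lies far to the left.

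The enzymes that handle amino groups formed the route with the highest median difference between control SHPCs and MHs, at 1.30. All 4 were higher in each control SHPC sample than in both MH samples, as were 18.7% of all probes. Sds, serine dehydratase, releases ammonia from serine to give pyruvate. Its level was 2.54 and 1.90 in the MHs, 3.64, 3.86 and 4.49 in control SHPCs and 3.79, 4.27 and 4.79 in SHPCs with BM-MCs. Both SHPC groups lay above the MHs with no overlap, while the SHPC groups overlapped each other. The difference from MHs was 1.78 in control SHPCs (standard error 0.36, 3.43-fold, adjusted p = 0.081 from limma) and 2.06 in SHPCs with BM-MCs (standard error 0.36, 4.18-fold, adjusted p = 0.093 from limma). Agxt, which converts glyoxylate to glycine with alanine as amino donor, was at 1.06 and 1.23 in the MHs, 2.22, 2.39 and 2.97 in control SHPCs and 1.76, 1.93 and 2.64 in SHPCs with BM-MCs. All SHPC samples were above both MHs, by 1.38 in the mean of control SHPCs (standard error 0.31, limma adjusted p = 0.099) and by 0.97 in that of SHPCs with BM-MCs (standard error 0.31, limma adjusted p = 0.30). Gpt, alanine aminotransferase, was at 1.59 and 1.33 in the MHs, 2.34, 2.40 and 3.31 in control SHPCs and 2.38, 2.78 and 3.10 in SHPCs with BM-MCs. It was 2.33-fold and 2.45-fold higher than in MHs (adjusted p = 0.14 and 0.23 from limma), again without overlap. Got1, cytosolic aspartate aminotransferase, had the smallest difference of the route in both comparisons, 1.17 (standard error 0.46) and 0.78 (standard error 0.46). Its level was 2.03 and 3.11 in the MHs, 3.47, 3.49 and 4.28 in control SHPCs and 3.40, 2.70 and 3.96 in SHPCs with BM-MCs. The MH samples lay far apart, and 1 sample with BM-MCs lay between them.

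**Figure D3:**
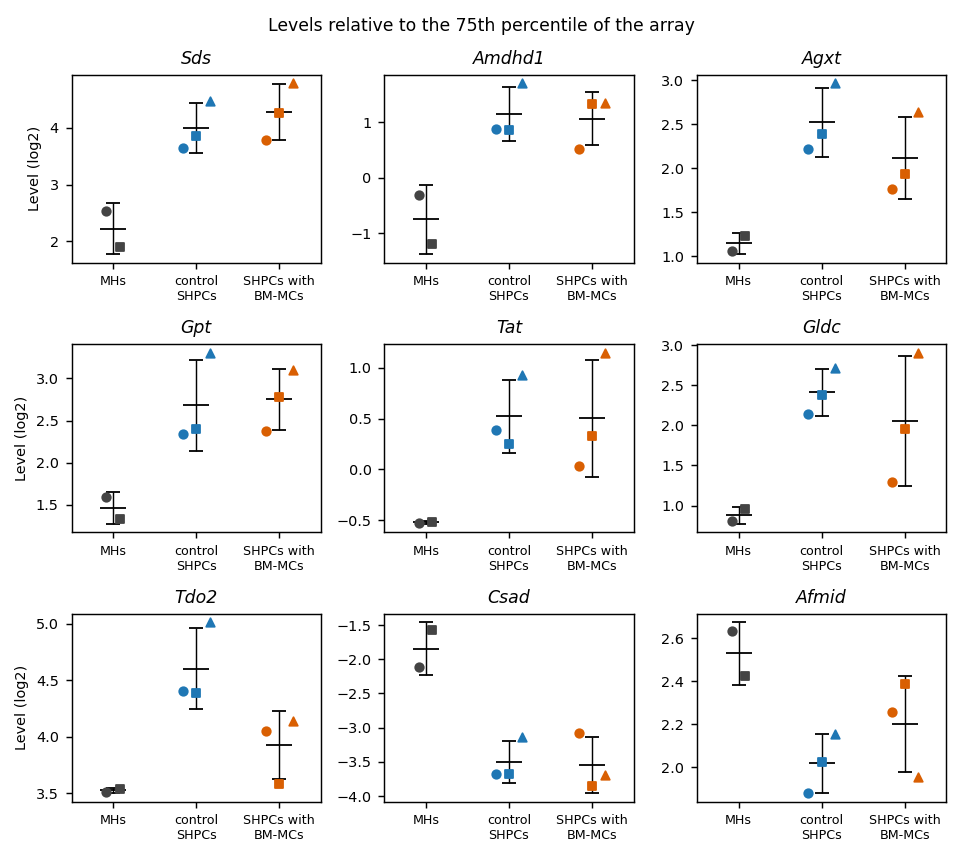
Points are single samples of 9 enzymes in the 3 groups (level as log2 relative to the 75th percentile of the array), with a horizontal bar at the group mean and whiskers of 1 SD (n = 2 MHs and n = 3 in each SHPC group). Sds, Amdhd1, Agxt, Gpt, Tat and Gldc have all 6 SHPC samples above both MHs, Csad and Afmid have all 6 below, and the Tdo2 samples with BM-MCs lie between the MHs and the control SHPCs.

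All 3 enzymes of histidine breakdown were higher in every control SHPC sample than in the MHs (18.7% of all probes), by a very small margin in Ftcd. Amdhd1, which opens the imidazolone ring, was at -0.31 and -1.19 in the MHs, 0.88, 0.85 and 1.70 in control SHPCs and 0.51, 1.33 and 1.35 in SHPCs with BM-MCs. The lowest SHPC sample was above the higher MH sample in both comparisons. Its difference from MHs was 1.89 (standard error 0.40, 3.71-fold, adjusted p = 0.084 from limma) in control SHPCs and 1.81 (standard error 0.40, 3.51-fold, adjusted p = 0.18 from limma) in SHPCs with BM-MCs. Uroc1, urocanate hydratase, acts just before Amdhd1 and was at 3.70 and 3.44 in the MHs, 4.02, 3.88 and 4.60 in control SHPCs and 3.93, 4.01 and 4.37 in SHPCs with BM-MCs. All SHPC samples were above both MHs, and the means differed by 0.60 and 0.53 (adjusted p = 0.25 and 0.39 from limma). Ftcd, which passes the formimino group to folate, had the smallest difference of the route, at 0.38 and 0.36. It was at 4.746 and 4.35 in the MHs, 4.753, 4.83 and 5.21 in control SHPCs and 4.72, 4.98 and 5.002 in SHPCs with BM-MCs. The lowest control was thus nearly level with the higher MH sample, and the lowest sample with BM-MCs lay under that MH sample. Hal, the first enzyme of the route, stood in the list of related genes and was 0.47 and 0.58 above the MHs (adjusted p = 0.20 and 0.27 from limma).

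In tyrosine breakdown only the first enzyme stood apart from the MHs in every SHPC sample. Tat, tyrosine aminotransferase, was at -0.53 and -0.51 in the MHs, 0.39, 0.25 and 0.93 in control SHPCs and 0.04, 0.33 and 1.15 in SHPCs with BM-MCs. The MH samples were nearly equal and all 6 SHPC samples were higher, by 1.04 (standard error 0.34, adjusted p = 0.18 from limma) and 1.02 (standard error 0.34, adjusted p = 0.31 from limma) in the group means. Hgd, homogentisate dioxygenase, had the smallest difference of the route in both comparisons, -0.04 with a 95% confidence interval from -0.54 to 0.46 and 0.01 with an interval from -0.49 to 0.51. It was at 4.72 and 4.36 in the MHs, 4.26, 4.36 and 4.89 in control SHPCs and 4.68, 4.48 and 4.49 in SHPCs with BM-MCs. The 3 groups covered the same range. Hpd, which forms homogentisate, and Fah, the last enzyme of the route, differed from the MHs by 0.18 and 0.30 in control SHPCs and by -0.04 and 0.32 in SHPCs with BM-MCs, with overlapping samples.

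The enzymes of tryptophan breakdown differed in direction. Tdo2, tryptophan dioxygenase, carries out the first step, and its level was 3.51 and 3.54 in the MHs, 4.41, 4.39 and 5.02 in control SHPCs and 4.05, 3.58 and 4.14 in SHPCs with BM-MCs. The 3 groups did not overlap, with the samples with BM-MCs between the MHs and the controls. The difference from MHs was 1.08 (standard error 0.24, 2.11-fold, adjusted p = 0.10 from limma) in control SHPCs and 0.40 (standard error 0.24, 1.32-fold, adjusted p = 0.50 from limma) in SHPCs with BM-MCs. Afmid, the formamidase of the next step, went the other way, at 2.63 and 2.43 in the MHs, 1.88, 2.02 and 2.15 in control SHPCs and 2.26, 2.39 and 1.95 in SHPCs with BM-MCs. Each SHPC sample was under both MHs, with a difference in means of -0.51 for control SHPCs (standard error 0.17, limma adjusted p = 0.18) and -0.33 for SHPCs with BM-MCs (standard error 0.17, limma adjusted p = 0.43). Acmsd, which turns the pathway away from nicotinamide nucleotide synthesis, was at -1.32 and -1.67 in the MHs, -0.66, -0.72 and -0.40 in control SHPCs and -1.77, -1.63 and -0.68 in SHPCs with BM-MCs. The controls were all above the MHs (0.90, standard error 0.32, adjusted p = 0.21 from limma), whereas the samples with BM-MCs spread over both ranges (0.13). Kmo and Haao, which lie further down, were above the MHs in every control SHPC sample, by 0.54 and 0.45. Kynu, kynureninase, had the smallest difference of the route between control SHPCs and MHs, 0.06 with an interval from -0.32 to 0.43. It was at 3.62 and 3.33 in the MHs, 3.50, 3.41 and 3.69 in control SHPCs and 3.45, 3.13 and 3.36 in SHPCs with BM-MCs, with overlap in every comparison.

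Among the enzymes of methionine and sulfur amino acids, Csad differed in one direction and Bhmt in the other. Csad, which makes hypotaurine from cysteine sulfinate on the way to taurine, was at -2.12 and -1.57 in the MHs, -3.68, -3.67 and -3.14 in control SHPCs and -3.08, -3.86 and -3.70 in SHPCs with BM-MCs. All 6 SHPC samples were lower than both MHs, and the SHPC groups overlapped. The level in control SHPCs was 3.15-fold lower than in MHs (log2 difference -1.65, standard error 0.29), with the lowest adjusted p of any of the 39 enzymes, 0.053 from limma. In SHPCs with BM-MCs it was 3.25-fold lower (-1.70, standard error 0.29, adjusted p = 0.089 from limma). Over the 21 other fits of the first of these comparisons, the limma adjusted p of Csad ran from 0.019 to 0.19 and was under 0.05 in 8. Cdo1, the dioxygenase that supplies the substrate of Csad, was at 1.06 and 0.92 in the MHs, 0.70, 0.54 and 0.95 in control SHPCs and 0.93, 1.25 and 1.48 in SHPCs with BM-MCs. Its control and MH samples overlapped, with a difference of -0.26.

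Bhmt, which remethylates homocysteine with betaine, was at 6.20 and 6.43 in the MHs, 7.02, 6.90 and 7.29 in control SHPCs and 6.68, 7.10 and 6.89 in SHPCs with BM-MCs. Each SHPC sample was above both MHs, by 0.75 (standard error 0.18, adjusted p = 0.11 from limma) and 0.58 (standard error 0.18, adjusted p = 0.29 from limma) in the means. Mat1a, which makes S-adenosylmethionine, had the smallest difference of the route between control SHPCs and MHs, 0.15 with an interval from -0.23 to 0.53. It was at 6.35 and 6.32 in the MHs, 6.33, 6.404 and 6.71 in control SHPCs and 6.32, 6.62 and 6.604 in SHPCs with BM-MCs, with the MH samples nearly equal and at the low end. Gnmt and Ahcy, which use S-adenosylmethionine and clear its product, differed by 0.50 and 0.24, and Cbs and Cth, which carry the sulfur to cysteine, by 0.29 and 0.58. Ahcy was at 5.02 and 4.75 in the MHs, 4.99, 4.97 and 5.42 in control SHPCs and 4.82, 4.82 and 5.08 in SHPCs with BM-MCs. The control and MH samples overlapped in all 5.

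In the glycine and serine route, Gldc, the decarboxylase of the glycine cleavage system, stood apart from the other members. Its brightest probe read 0.81 and 0.96 in the MHs, 2.14, 2.37 and 2.72 in control SHPCs and 1.30, 1.95 and 2.91 in SHPCs with BM-MCs. The lowest SHPC sample was above the higher MH sample, and the samples with BM-MCs spread over the widest range. The difference from MHs was 1.53 (standard error 0.42, 2.88-fold, adjusted p = 0.14 from limma) in control SHPCs and 1.17 (standard error 0.42, 2.25-fold, adjusted p = 0.33 from limma) in SHPCs with BM-MCs. Amt, the aminomethyltransferase of the same complex, differed by only 0.14 (interval from -0.16 to 0.44) in control SHPCs. It was at -3.09 and -3.33 in the MHs, -3.01, -3.17 and -3.03 in control SHPCs and -3.09, -3.001 and -2.92 in SHPCs with BM-MCs. Shmt1, which interconverts serine and glycine, differed by 0.29. The other probes of Gldc that passed the filter gave 1.58 and 0.65 between control SHPCs and MHs. For the effect of BM-MCs among SHPCs the 3 probes gave -0.36, -0.13 and 0.75, which differ in direction.

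The branched chain enzymes showed smaller differences. Bckdhb, a subunit of the branched chain ketoacid dehydrogenase, was at 0.57 in both MHs, 1.05, 0.98 and 1.65 in control SHPCs and 0.69, 0.44 and 0.94 in SHPCs with BM-MCs. The controls lay above the MHs (0.66, standard error 0.23, adjusted p = 0.20 from limma), and the samples with BM-MCs lay on both sides of them (0.12). Mccc1, which carries the biotin of methylcrotonyl-CoA carboxylase in leucine breakdown, was at 1.38 and 1.30 in the MHs, 1.72, 1.75 and 2.23 in control SHPCs and 1.67, 1.60 and 2.05 in SHPCs with BM-MCs. Every SHPC sample was above both MHs, by 0.56 and 0.43 (adjusted p = 0.22 and 0.41 from limma). Ivd, isovaleryl-CoA dehydrogenase, was at 0.83 and 0.62 in the MHs, 0.92, 1.03 and 1.45 in control SHPCs and 0.94, 0.70 and 1.09 in SHPCs with BM-MCs. Its controls were all above the MHs (0.41). Bckdha, Mccc2, Hibch and Hibadh overlapped the MHs in both SHPC groups, and Hibadh had the smallest difference in control SHPCs, 0.09 with an interval from -0.34 to 0.52. It was at 3.68 and 3.16 in the MHs, 3.42, 3.43 and 3.67 in control SHPCs and 3.43, 3.35 and 3.59 in SHPCs with BM-MCs.

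Proline and lysine breakdown gave no enzyme whose control SHPC samples were all outside the range of the MHs. Prodh, proline dehydrogenase, was at -1.58 and -2.16 in the MHs, -1.83, -1.81 and -1.03 in control SHPCs and -1.38, -1.83 and -1.53 in SHPCs with BM-MCs, a difference of 0.32 between control SHPCs and MHs. Aldh4a1, which completes the oxidation to glutamate, was at 4.62 and 3.99 in the MHs, 4.06, 4.09 and 4.58 in control SHPCs and 4.09, 4.24 and 4.36 in SHPCs with BM-MCs. Its MH samples enclosed all of the others, and the difference was -0.06 (interval from -0.61 to 0.49). The second, dimmer probe of Aldh4a1 gave 0.52. Aass, the first enzyme of lysine breakdown, was at -2.39 and -0.99 in the MHs, -0.97, -1.13 and -0.15 in control SHPCs and -1.86, -1.31 and -1.05 in SHPCs with BM-MCs. The gap of the MH samples was wider than the difference from the control SHPC mean (0.94, standard error 0.47). Gcdh, glutaryl-CoA dehydrogenase, was at 4.51 and 3.96 in the MHs, 4.11, 4.21 and 4.51 in control SHPCs and 4.09, 4.44 and 4.30 in SHPCs with BM-MCs, and its difference in control SHPCs was 0.05 (interval from -0.44 to 0.54).

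**Figure D4:**
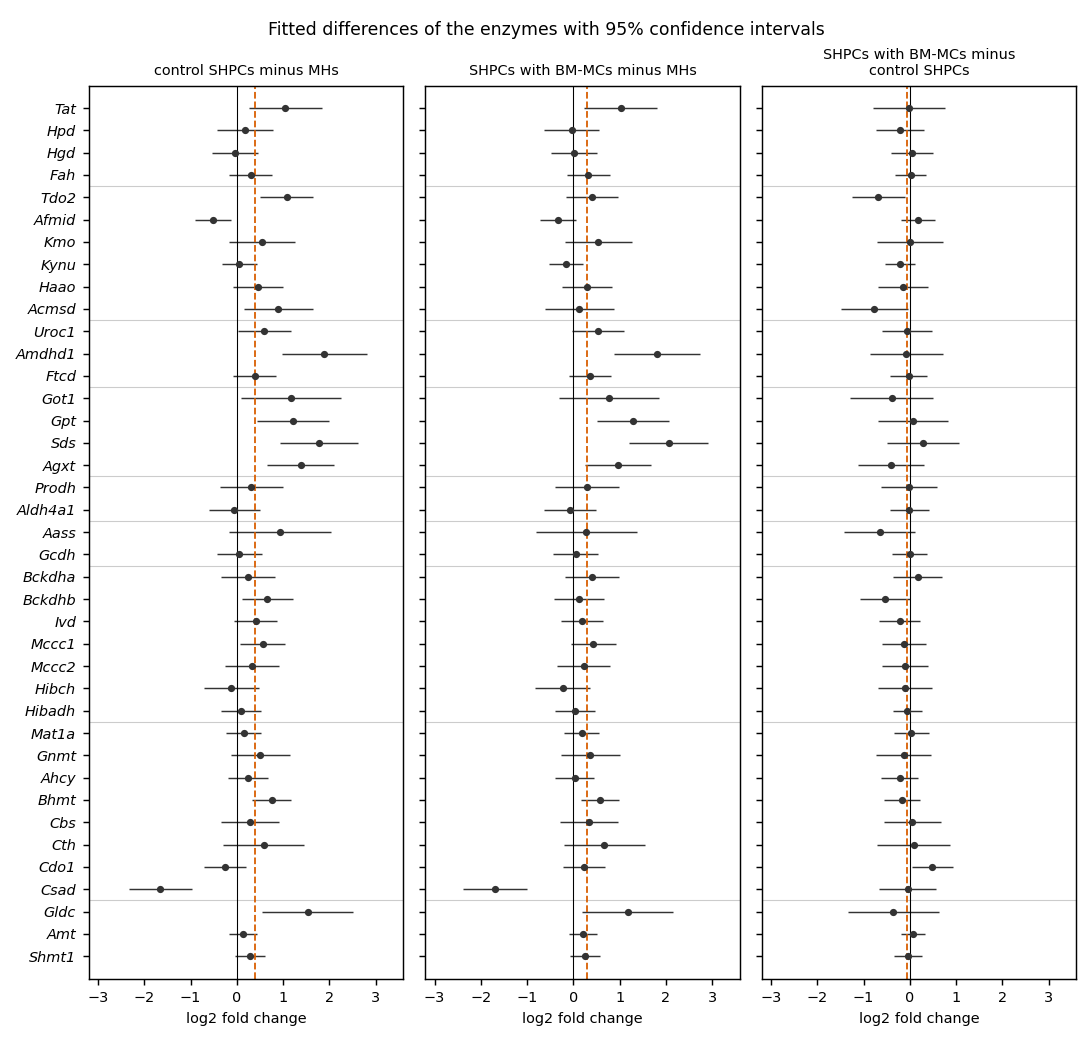
Each panel is 1 comparison, each point the fitted log2 fold change of an enzyme and each horizontal bar its 95% confidence interval, with the median over the 39 enzymes as a dashed line. The medians were 0.38 for control SHPCs minus MHs, 0.29 for SHPCs with BM-MCs minus MHs and -0.06 for SHPCs with BM-MCs minus control SHPCs, and the intervals are unadjusted.

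Transplantation of BM-MCs was the question behind the comparison of the 2 kinds of SHPCs, and here no enzyme passed the threshold. In the limma fit of the 6 SHPC samples, 0 of 39 passed the adjusted threshold (0.0217% of all probes were called higher and 0% lower), and the lowest adjusted p was 0.26, for Tdo2. At an unadjusted p under 0.05, 1 enzyme, Cdo1, was higher with BM-MCs (10.7% of probes) and 2, Tdo2 and Acmsd, were lower (5.93%). The methods' t-test called 0 in either direction, with or without adjustment, where 8.11% of all probes were called higher and 6.85% lower unadjusted. No enzyme was above the controls in every sample with BM-MCs (13% of probes), and 2 were below them, Tdo2 and Bckdhb (11.6%). Without control SHPC replicate 3, 2 enzymes, Cdo1 and Hgd, were above (24% of probes) and 2 were below (18.7%). The difference was below 0 for 27 enzymes (47.4% of probes) and above 0 for 12 (52.6%), with a median of -0.06 against 0.02 over all probes. This direction turned without control SHPC replicate 3, with 26 enzymes above 0, 13 below and a median of 0.09. Without SHPCs with BM-MCs replicate 1 it was nearly even, with 19 above 0, 20 below and a median of -0.019. Within the second set of arrays, where control SHPC replicate 3 is the control, 36 enzymes were lower with BM-MCs and 3 higher, with a median of -0.43. Scaling each array to its median shifted every difference by -0.19 and left 2 enzymes above 0 and 37 below. The 3 granulocyte markers tested summed to between 0.363 and 0.481 with BM-MCs and between 1.13 and 1.57 in controls, and the 3 erythroid markers to between 0.330 and 0.445 and between 0.621 and 2.82, and their part in these differences was not tested.

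Tdo2, with the values given above, was 1.60-fold lower with BM-MCs than in control SHPCs (log2 difference -0.68, standard error 0.23, 95% confidence interval from -1.24 to -0.11). The highest sample with BM-MCs, at 4.14, was under the lowest control, at 4.39. Without control SHPC replicate 3 the difference was -0.47, and within the second set of arrays, against that replicate alone, it was -1.09. Acmsd differed by -0.77 (standard error 0.30, adjusted p = 0.29 from limma), but its replicate 3 with BM-MCs, at -0.68, lay among the controls. Bckdhb differed by -0.54 (standard error 0.22, adjusted p = 0.30 from limma), with the highest sample with BM-MCs, at 0.94, just under the lowest control, at 0.98. Cdo1 was 1.40-fold higher with BM-MCs (0.49, standard error 0.18, adjusted p = 0.28 from limma), and 1 of the samples, at 0.93, lay below the highest control, at 0.95.

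The other enzymes among the 12 with the lowest p in this comparison were Aass (-0.66), Kynu (-0.22), Agxt (-0.41), Ahcy (-0.22), Ivd (-0.22), Afmid (0.18), Bhmt (-0.18) and Got1 (-0.40). All 8 overlapped between the SHPC groups, with adjusted p from 0.36 to 0.61 in limma. Of the 6 enzymes whose control SHPCs differed most from the MHs in size, Amdhd1 was at -0.08 between the SHPC groups (interval from -0.87 to 0.71), Sds at 0.29 (from -0.49 to 1.06), Csad at -0.04 (from -0.66 to 0.57), Gldc at -0.36 (from -1.34 to 0.62), Agxt at -0.41 (from -1.12 to 0.30) and Gpt at 0.07 (from -0.68 to 0.83). All 6 intervals held 0.

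The pattern was compared with 80 other genes of amino acid metabolism, all of which passed the filter. None of them passed the adjusted threshold in limma in any of the 3 comparisons. At an unadjusted p under 0.05, 16 were higher (8.21% of all probes) and 6 lower (11%) in control SHPCs than in MHs. In SHPCs with BM-MCs against MHs, 6 were higher (7.34%) and 2 lower (5.96%). With BM-MCs against control SHPCs, 2 were higher (10.7%) and 3 lower (5.93%). The median difference of the 80 genes was 0.20, 0.16 and -0.10 in these comparisons, against -0.03, 0.0029 and 0.02 over all probes. All 8 genes of the urea cycle, which turns the released ammonia into urea, were above 0 between control SHPCs and MHs (46.2% of all probes). They were led by Otc at 1.03 (adjusted p = 0.22 from limma). Asns, which makes asparagine, and Glul, which fixes ammonia in glutamine, were below both MHs in every SHPC sample, with differences of -1.67 and -1.13 in control SHPCs and limma adjusted p-values of 0.11 and 0.13. Oat, ornithine aminotransferase, differed by -1.26 (limma adjusted p = 0.23) and was below both MHs in every control SHPC sample. Psat1 and Psph, enzymes of serine synthesis, were above the MHs in every control SHPC sample, by 1.16 and 0.68 on the log2 scale. With BM-MCs they differed from control SHPCs by -1.16 and -0.79. The groups did not overlap in either case, and the limma adjusted p ran from 0.126 to 0.235.

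Of 14 regulators known for a part in amino acid metabolism of the liver, 1 passed the threshold. Of all probes, 0.0217% were called higher with BM-MCs than in control SHPCs and 0.321% than in MHs. Onecut1, a transcription factor of hepatocyte and bile duct development, was 2.29 higher with BM-MCs than in control SHPCs (adjusted p = 0.023 from limma). It was 1.79 higher than in MHs (adjusted p = 0.021 from limma), where slide position and group cannot be told apart. Neither call was stable, as some other fits called no probe higher. Between the SHPC groups these were the methods' t-test after Benjamini-Hochberg adjustment, the replicate number as a block and the unfiltered probes. The fits that dropped either of the first 2 samples of either group also called none higher. Against MHs the fits with none higher included the methods' t-test after adjustment and the replicate number as a block. They also included the compared groups alone and dropping either of the first 2 controls. Other settings still called some probes higher. The glucocorticoid receptor gene Nr3c1, Cebpa and Hnf4a differed by 0.07, -0.14 and -0.19 between control SHPCs and MHs and did not pass. Of 15 amino acid transporters, 14 passed the filter and 0 passed the limma threshold in any comparison. At an unadjusted p under 0.05, 2 were higher (8.21% of all probes) and 3 lower (11%) in control SHPCs than in MHs. In SHPCs with BM-MCs against MHs, 3 were higher (7.34%) and 2 lower (5.96%). None passed between the SHPC groups, where 10.7% of all probes were higher and 5.93% lower.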

How the data were processed

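RNA of 8 samples was labelled with Cy3 and hybridised to Agilent rat arrays. The authors deposited, per the labels, the processed signal of Agilent Feature Extraction 10.7, an intensity after background subtraction and with no scaling between arrays, in scanner files and in 1 value table with the same values. The scanner file of the second control SHPC sample was incomplete, with 20903 of 62976 features, so its signals were read from the table and its background marks had no part in the filter. Here each signal was divided by the 75th percentile of the signals on the array and put on the log2 scale. Outlier spots were dropped and the remaining spots of each probe averaged. Probes had to be well above background in 3 or more of the 7 complete arrays, and the 23065 that did were fitted with limma 3.58.1 (R 4.3.3), with Benjamini-Hochberg adjustment over all of them and a threshold of 0.05. Differences from MHs came from a fit of all 8 samples, and those between SHPC groups from the 6 SHPC samples. Probes carried the gene name of the scanner files, whose header names the build rn4. An enzyme was given by its brightest tested probe, and 1 probe of Gldc and 1 of Kynu were too dim to be tested. Sample values were given for up to 12 enzymes with the lowest p between the SHPC groups and for those with the largest and smallest change of each route between control SHPCs and MHs, and sequences were shown for at most 6. Other enzymes with an unadjusted p under 0.05 were named after their values were seen. The code was tested on simulated data with known changes. The enzymes, the other gene lists and the motifs were chosen with earlier results of these data known, so no list was tested as a set. Alternatives changed the scaling, background correction, filter, outlier spots, samples of the fit, blocks, variance model, test, probe choice and samples, and after the values were seen the counts of groups without overlap were also taken without control SHPC replicate 3.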

Additional observations from a re-analysis of the deposited data

How the results depend on the processing

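Among SHPCs, no enzyme passed the threshold with against without BM-MCs in any of the 15 alternatives of processing or in the 6 fits that left out a sample. Between control SHPCs and MHs, where none passed in the reported fit, single enzymes did: without scaling of the arrays 2 higher (Amdhd1 and Sds) and 1 lower (Csad), with an intensity trend in the variance 5 higher (Agxt, Amdhd1, Bhmt, Sds and Tdo2) and 1 lower (Csad), and with the fit restricted to the compared groups 1 higher (Gldc). Csad alone was the 1 lower under array median scaling, with only probes well above background on every complete array, with dim spots set at a floor, and with the set of arrays as a block. The methods' unadjusted t-test called 8 higher and 2 lower. With samples left out in turn, 0 to 2 were called higher (Agxt and Gldc without SHPCs with BM-MCs replicate 3) and 0 to 1 lower (Csad without control SHPC replicate 3 or SHPCs with BM-MCs replicate 1). For SHPCs with BM-MCs against MHs, 2 were higher without scaling (Amdhd1 and Sds), 1 higher (Sds) and 1 lower (Csad) with an intensity trend, 4 higher and 1 lower in the methods' t-test without adjustment, and 0 to 1 lower with samples left out (Csad without SHPCs with BM-MCs replicate 1). Over all probes of the comparison between control SHPCs and MHs, 0.863% were called higher and 0.208% lower without scaling, 1.54% and 0.876% with the intensity trend and 0.923% and 0.33% with only the compared groups, 0.828% to 1.09% and 0.234% to 0.425% under the settings that called Csad alone, and 0.213% to 1.34% and 0.0173% to 0.928% with samples left out. For SHPCs with BM-MCs against MHs these shares were 0.408% and 0.0217% without scaling and 0.499% and 0.0737% with the trend. With samples left out they ran from 0% up to 0.473% and 0.0347%, without SHPCs with BM-MCs replicate 1, the fit that called Csad. The causes were not tested.

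The median over the enzymes kept its sign between control SHPCs and MHs, from 0.20 to 0.58 over all 21 alternatives. With the set of arrays as a block it was -0.43 between the SHPC groups and -0.21 for SHPCs with BM-MCs against MHs, both resting on control SHPC replicate 3. In the second of these 24 enzymes turned to below 0, among them Got1 (0.78 to -0.03), Cth (0.66 to -0.24), Kmo (0.54 to -0.10) and Uroc1 (0.53 to -0.12). Scaling to the array median shifted all probes by -0.20 in SHPCs with BM-MCs against MHs and gave a median of 0.09, with 25 enzymes above 0 and 14 below. Counts at an unadjusted p under 0.05 over these alternatives ran from 0 to 1 higher and 0 to 8 lower between the SHPC groups, from 8 to 16 and 1 to 2 between control SHPCs and MHs, and from 1 to 11 and 1 to 2 for SHPCs with BM-MCs against MHs. In the same order, the shares of all probes in the reported fit were 10.7% and 5.93%, 8.21% and 11%, and 7.34% and 5.96%. For the other limma fits no such share was taken, so the ranges cannot be set against all probes.

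With the replicate number as a block, 1 enzyme (Agxt) was called higher in control SHPCs than in MHs (0.572% of all probes), and the median was 0.28 and 0.15 in the comparisons with MHs and -0.06 between the SHPC groups. The reported fits did not pair samples by number. Deviations of same-numbered SHPC samples correlated at 0.13, 0.078 and 0.17 over 22923 probes, and those of other pairs of SHPC groups at -0.15 to 0.082. Each sample with BM-MCs correlated best with the control of its own number. Same-numbered pairs with MHs correlated at 0.051 and -0.043 for control SHPCs and at -0.043 and -0.13 for SHPCs with BM-MCs. Whether numbers pair samples was not settled.

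Among the enzymes selected in each comparison, some with small differences also turned in sign. Afmid was -0.0097 between the SHPC groups under array median scaling. Between control SHPCs and MHs, Kynu was -0.025 with quantile normalization, -0.033 without scaling and -0.021 with the set of arrays as a block, Gcdh was -0.074, -0.039 and -0.066 there, -0.014 with normexp and quantile normalization on the 7 complete arrays and -0.013 with the replicate block, Hibadh was -0.0022 with quantile normalization, and Aldh4a1 was 0.23 as the mean of its probes. With samples left out, Hgd ran from -0.23 to 0.15, Kynu from -0.091 to 0.20, Aldh4a1 from -0.37 to 0.25, Gcdh from -0.23 to 0.32 and Hibadh from -0.17 to 0.35. With 2 or 3 arrays a group, differences of this size cannot be resolved.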
